A study of Homo sapiens with 6 samples.

Results

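Transcript levels of ubiquitin conjugating enzymes (UBE2 genes) and of the enzymes that remove ubiquitin (USP, OTUD and UCHL genes) were examined in MDA-MB-231, a triple-negative breast cancer line of human origin whose p53 is mutant. Members were chosen by symbol in the platform annotation, with 2 USP genes left out of the list. The annotation names 75 members among 14884 genes, 22 of them conjugating and 53 removing. UBE2 or USP genes that it does not name are not analysed here. The cells were transfected with 1 of 3 siRNAs by a lipid reagent: siATM against ATM, a kinase activated by DNA double-strand breaks, sip53 against p53, or the control siNC. Each group has 2 samples, 1 array per sample, and all groups share the cell line, the medium and the transfection. No time after transfection is labelled, nor whether a group's samples came from separate cultures. The p-values therefore measure the spread of these samples alone, and that spread may be technical. How far each siRNA lowered its target transcript is not analysed here.

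Ubiquitin is passed from an activating enzyme (E1) to a conjugating enzyme (E2), which, with a ligase (E3), attaches it to a protein. Conjugating enzymes largely set the type of chain that is built, and so whether the protein goes to the proteasome or is used in signalling. Removing enzymes, or deubiquitinases, cut ubiquitin off again. In the DNA damage response that ATM starts, and in the control of p53 stability, enzymes of both kinds act, among them UBE2T, UBE2N, the RAD6 homologues UBE2A and UBE2B, USP7 and USP28.

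All values are deposited log2 probe-set values, and a level is comparable between arrays for 1 gene but not between genes. Array medians ran from 5.95 to 5.98 in log2 units. A gene was tested if its mean reached 5.96, the median over every probe set, which kept 10640 genes, among them 66 of the 75 members (21 of 22 conjugating and 45 of 53 removing). A gene is called changed at an adjusted p below 0.05 (limma over all tested genes, Benjamini-Hochberg). Of 12 listed markers of the line 9 are named and 7 were tested, with 0 of 7 called against siNC. On the 6 arrays VIM lay between 11.59 and 11.66, CD44 between 10.80 and 10.88, AXL between 12.56 and 12.73 and MSN between 12.66 and 12.73. The epithelial genes KRT18 (11.74 to 11.96), EPCAM (8.93 to 9.09) and KRT8 (7.87 to 8.19) were expressed too. KRT8 was higher with siATM than with sip53 (0.25, SE 0.07, adjusted p = 0.0258). The hormone receptor genes ESR1 and PGR were below the limit. Of 8 haematopoietic markers 2 are named in the annotation, LYZ and CD68, and both were tested, LYZ being higher after siATM (log2 fold change 0.38, SE 0.06, adjusted p = 0.00392). Of 9 endothelial and fibroblast markers 5 are named, and of the 3 tested LUM (0.68) was higher and PECAM1 (−0.47) lower after siATM, and LUM was higher after sip53 too (0.49). The mean log2 value of the 2 named haematopoietic markers was 9.41 and 9.49 with siNC, 9.71 and 9.73 with siATM and 9.31 and 9.30 with sip53, and that of the 5 named endothelial and fibroblast markers lay between 5.81 and 6.04 on the 6 arrays. The part of such cells in the results was not tested.

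The conjugating enzyme genes UBE2T, UBE2V2, UBE2S and UBE2L6 were lower with siATM than with either other siRNA. USP12 and OTUD4 were the removing enzyme genes with the largest falls after siATM. The RefSeq promoter table does not hold UBE2V2. Before the values, the upstream sequences of the other 5 of these members are shown. Each runs 5′ to 3′ over the 200 bases that end just before the RefSeq transcript start, on the gene's strand in GRCh38.p14. Capitals mark matches to CCAAT (the CCAAT box) or TTTGAA (the cell cycle homology region), read on either strand.
UBE2T, chr1:202341937-202342136, minus strand: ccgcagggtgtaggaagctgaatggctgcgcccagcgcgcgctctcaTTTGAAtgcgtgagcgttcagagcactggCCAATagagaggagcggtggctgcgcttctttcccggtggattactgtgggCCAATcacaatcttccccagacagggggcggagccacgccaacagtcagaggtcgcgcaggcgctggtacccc
UBE2S, chr19:55407789-55407988, minus strand: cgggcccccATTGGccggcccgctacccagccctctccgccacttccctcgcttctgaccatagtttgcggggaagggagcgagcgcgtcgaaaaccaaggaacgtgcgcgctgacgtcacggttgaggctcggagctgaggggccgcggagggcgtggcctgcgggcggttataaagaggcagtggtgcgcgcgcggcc
UBE2L6, chr11:57567936-57568135, minus strand: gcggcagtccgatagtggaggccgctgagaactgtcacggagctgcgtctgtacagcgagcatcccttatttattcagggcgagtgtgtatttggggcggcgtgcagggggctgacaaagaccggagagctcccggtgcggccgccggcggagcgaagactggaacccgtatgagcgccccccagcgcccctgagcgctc
USP12, chr13:27171812-27172011, minus strand: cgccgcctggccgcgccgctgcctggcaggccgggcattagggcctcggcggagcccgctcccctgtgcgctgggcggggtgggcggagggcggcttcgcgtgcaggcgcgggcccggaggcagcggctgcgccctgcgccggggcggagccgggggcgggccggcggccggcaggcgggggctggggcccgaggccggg
OTUD4, chr4:145180590-145180789, minus strand: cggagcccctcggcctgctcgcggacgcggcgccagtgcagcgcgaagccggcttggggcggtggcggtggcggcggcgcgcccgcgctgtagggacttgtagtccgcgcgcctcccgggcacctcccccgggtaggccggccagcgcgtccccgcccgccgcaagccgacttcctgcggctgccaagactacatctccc

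UBE2T has a pair of CCAAT matches, which begin 124 and 73 bases before the start, and a TTTGAA match 153 bases before it, and UBE2S has 1 CCAAT match on the other strand at 191 bases. UBE2L6, USP12 and OTUD4 have no match in the window shown. The RefSeq promoter table holds 60 of the 75 members. Over the 250 bases before the start, CCAAT was found in 15 of these 60 (25.0%), against 33.0% of all 27305 promoters of the table. TTTGAA was found in 3 of 60 (5.0%, against 13.6% of all promoters), namely UBE2T, UBE2U and USP30, named here after the search. The E2F-type pattern TTTNNCGC was found in 4 of 60 (6.67%, against 5.93%) and the core of the interferon-stimulated response element in 0 of 60 (3.07% of all promoters). Among the 12 members lower after siATM that the table holds, 3 had CCAAT and 1 TTTGAA, and of the 2 higher members it holds, 2 had CCAAT and 0 TTTGAA. A base could belong to more than 1 match, and a match is a run of letters and not a shown binding site.

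After siATM, 5 conjugating enzyme genes fell and 2 rose, against siNC. The falls were in UBE2T, UBE2V2, UBE2L6, UBE2S and UBE2Q2, at 1.21-fold to 1.42-fold, and the rises in UBE2H and UBE2E3, at 1.25-fold each. The 7 genes are 33.3% of the 21 tested, while 25.5% of all tested genes changed in this comparison, 12.5% higher and 13.0% lower. The median log2 fold change of the 21 was −0.07, beside −0.0006 over all tested genes. The plot of conjugating enzyme values by array shows the 21 genes.

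**Figure D1:**
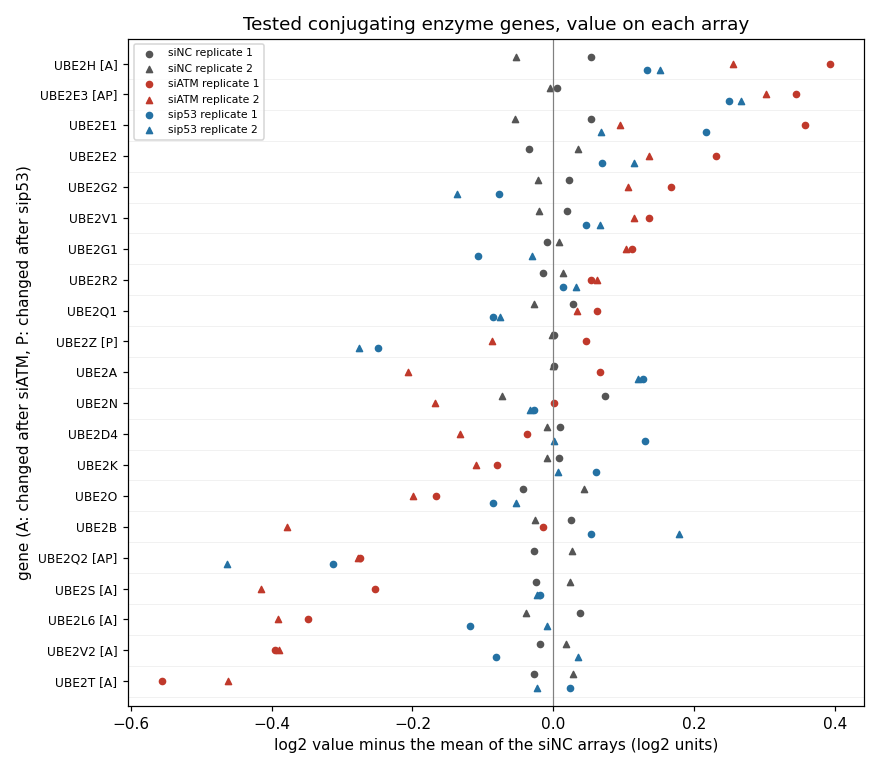
Log2 value on each array minus the mean of the siNC arrays (horizontal axis, log2 units) for the 21 tested conjugating enzyme genes, ordered by their siATM difference; circles are replicate 1 and triangles replicate 2, and A or P after a name marks a gene that changed after siATM or sip53. UBE2T is lowest with siATM (log2 fold change −0.51), while its sip53 arrays lie at the siNC level.

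UBE2T, the conjugating enzyme of the Fanconi anaemia pathway that marks FANCD2 at stalled forks, had log2 values of 11.25 and 11.31 with siNC, 10.72 and 10.82 with siATM, and 11.30 and 11.26 with sip53. Both siATM arrays lay below the other 4, which overlapped. The log2 fold change after siATM was −0.51 (SE 0.06, adjusted p = 0.00172) and after sip53 −0.0001 (SE 0.06, adjusted p = 1). UBE2S extends ubiquitin chains on the anaphase-promoting complex, the ligase that ends mitosis. Its values were 9.10 and 9.15 with siNC, 8.87 and 8.71 with siATM, and 9.10 and 9.10 with sip53. Again the siATM arrays alone were low (log2 fold change −0.33, SE 0.07, adjusted p = 0.0127), and after sip53 the difference was −0.02 (SE 0.07). The RAD6 homologues UBE2A and UBE2B, which with RAD18 mark PCNA at damaged templates, did not pass the test after either siRNA. UBE2B stood at 7.002 and 6.95 with siNC, 6.96 and 6.60 with siATM, and 7.03 and 7.16 with sip53. Its siATM arrays differed from each other by 0.36, the widest gap within a group among the tested conjugating enzyme genes. UBE2A had log2 fold changes of −0.07 after siATM and 0.12 after sip53 (SE 0.09 each).

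Markers of proliferation moved with UBE2T and UBE2S. Of 18 listed markers 17 are named, and 17 of 17 were lower after siATM, beside 13.0% of all tested genes. Their median log2 fold change was −0.49, while after sip53 1, RRM2, was higher and 1, TYMS, lower. The list was chosen with earlier results of these arrays known, so its direction is not independent evidence. The mean log2 value of the 17 was 10.74 on each siNC array, 10.26 and 10.20 with siATM, and 10.73 on each sip53 array. Their part in the values of UBE2T and UBE2S was not tested, and in bulk RNA fewer cycling cells and less transcript per cell cannot be told apart. Of the 17 tested genes of the anaphase-promoting complex and its regulators, 5 fell after siATM and 1 rose (35.3% called, beside 25.5% of all tested genes). The falls included the co-activator CDC20 (−0.49, SE 0.06), the inhibitor FBXO5 (−0.43, SE 0.07) and the core subunit CDC26 (−0.29, SE 0.06), and the rise was in ANAPC16 (0.36, SE 0.07). The complex's median log2 fold change was −0.08. After sip53 1 of the 17 changed (5.88%, beside 10.6% of all tested genes), CDC23, which was higher (0.28, SE 0.06, adjusted p = 0.0229).

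Among the builders of the chain type used in signalling, UBE2N is the active enzyme and UBE2V1 and UBE2V2 are its catalytically inactive partners. UBE2V2 had values of 7.62 and 7.66 with siNC, 7.25 and 7.25 with siATM, and 7.56 and 7.68 with sip53. The siATM arrays lay below all others (log2 fold change −0.39, SE 0.06, adjusted p = 0.00458). UBE2V1 was not called, at 0.13 (SE 0.05, adjusted p = 0.138) after siATM and 0.06 after sip53. UBE2N was not called either, at −0.08 and −0.03 (SE 0.08 each), and its siATM arrays (6.31 and 6.14) overlapped the siNC arrays (6.38 and 6.24). Its mean of 6.27 was close to the limit of 5.96 for testing. UBE2V1 and UBE2V2 are close in sequence, and their probe sets may share signal. UBE2L6 is the conjugating enzyme of ISG15, an interferon-induced ubiquitin-like protein. It stood at 7.93 and 7.86 with siNC, 7.55 and 7.50 with siATM, and 7.78 and 7.88 with sip53. The siATM arrays were low and the others overlapped (log2 fold change −0.37, SE 0.06, adjusted p = 0.00655). Of 9 tested interferon-stimulated markers, 4 were lower after siATM (44.4%, beside 13.0% of all tested genes). They were DDX60, HERC5, IFIT3 and IFI44, and ISG15 itself was at −0.06 (SE 0.06, adjusted p = 0.552). Over these 9 markers the mean log2 value was 8.48 on each siNC array, 8.28 and 8.14 with siATM, and 8.52 on each sip53 array, and their part in the level of UBE2L6 was not tested.

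UBE2E3 and UBE2Q2 changed after both siRNAs. They are 2 of the 21 tested conjugating enzyme genes, while 536 of all 10640 tested genes were called after both. After sip53 3 of the 21 were called (14.3%, beside 10.6% of all tested genes), UBE2E3 higher and UBE2Q2 and UBE2Z lower. UBE2E3, a member of the UBE2E family, which is close to UBE2D, had values of 8.68 and 8.67 with siNC, 9.02 and 8.97 with siATM, and 8.92 and 8.94 with sip53. All 4 knockdown arrays lay above both control arrays, with log2 fold changes of 0.32 (adjusted p = 0.00582) and 0.26 (adjusted p = 0.0291; SE 0.05 each). Its relatives UBE2E1 (0.23, SE 0.10), UBE2E2 (0.18, SE 0.06) and UBE2D4 (−0.08, SE 0.07) did not pass after siATM, nor did any of the 3 after sip53. UBE2Q2, one of the less studied conjugating enzymes, fell from 9.004 and 9.06 with siNC to 8.76 and 8.75 with siATM and 8.72 and 8.57 with sip53. The control arrays were the highest in that gene (log2 fold change −0.28, adjusted p = 0.0239 and −0.39, adjusted p = 0.0144; SE 0.07 each). These comparisons share the siNC arrays, so a high or low control moves both.

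UBE2H, which serves the CTLH ligase, rose after siATM from 10.29 and 10.18 to 10.63 and 10.49 (log2 fold change 0.32, SE 0.07, adjusted p = 0.0153), and with sip53 it stood at 10.37 and 10.39 (0.14, not called). Between the siRNAs UBE2H was not called (0.18, SE 0.07, adjusted p = 0.0943). UBE2Z, which takes ubiquitin from the activating enzyme UBA6, changed after sip53 and not after siATM. Its values were 10.82 and 10.81 with siNC, 10.86 and 10.73 with siATM, and 10.57 and 10.54 with sip53, so the sip53 arrays lay below the other 4 (−0.26, SE 0.06, adjusted p = 0.045). The makers of degradation chains UBE2G1, UBE2G2, UBE2K and UBE2R2 did not pass against siNC after either siRNA, with log2 fold changes between −0.11 and 0.14. UBE2U, which lay between 3.45 and 3.99 on the 6 arrays, was below the limit and was not tested.

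The control arrays weigh on several of these calls. UBE2T, UBE2V2, UBE2L6 and UBE2E3 kept their siATM call in each of the 6 fits that left out 1 array (adjusted p at most 0.0484). UBE2S lost it without siNC replicate 1 or 2 (adjusted p up to 0.073), UBE2H without siATM replicate 1 or siNC replicate 2 (up to 0.091), and UBE2Q2 whichever siATM or siNC array was dropped (up to 0.119). After sip53, UBE2E3 and UBE2Z lost theirs whichever siNC or sip53 array was dropped (adjusted p at most 0.16 and 0.206), and UBE2Q2 without siNC replicate 1, siNC replicate 2 or sip53 replicate 2 (up to 0.102). The number of conjugating enzyme genes called after siATM was 4 without siNC replicate 2. After sip53 it was 1 without sip53 replicate 1 and 0 without siNC replicate 1, siNC replicate 2 or sip53 replicate 2. UBE2Z was also not called with the replicate number as a block.

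Of the enzymes that remove ubiquitin, 11 fell after siATM and 2 rose. USP12 and OTUD4 were the only members of either class at 1.5-fold or more (1.67-fold and 1.58-fold lower), 2 of 66 where 3.24% of all tested genes were called at that size. After sip53 and in the direct comparison 0 of 66 members were called at 1.5-fold or more, beside 1.36% and 4.74% of all tested genes. At any size 6 and 21 of the 66 were called by limma (9.09% and 31.8%), beside 10.6% and 30.3% of all tested genes. The 13 genes are 28.9% of the 45 tested, beside 25.5% of all tested genes, and the median log2 fold change of the 45 was −0.02. By direction, 11 of 45 lower stands beside 13.0% of all tested genes and 2 of 45 higher beside 12.5%. By family, 9 of 35 tested USP genes fell and 2 rose, 2 of 8 OTUD genes fell, and 0 of 2 tested UCHL genes changed. The plot of removing enzyme values by array shows the 45 genes.

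**Figure D2:**
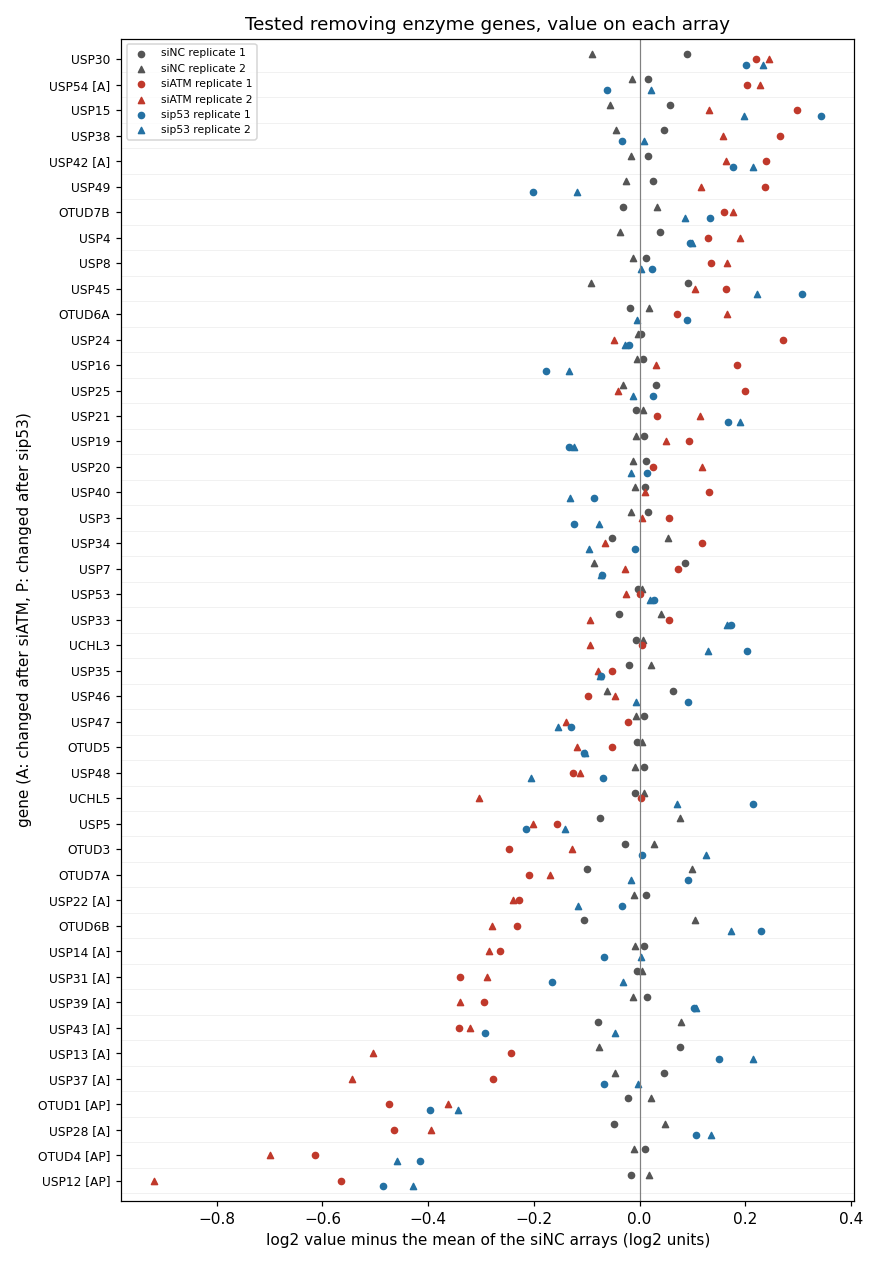
Log2 value on each array minus the mean of the siNC arrays (horizontal axis, log2 units) for the 45 tested removing enzyme genes, ordered by their siATM difference; circles are replicate 1 and triangles replicate 2, and A or P after a name marks a gene that changed after siATM or sip53. USP12, OTUD4 and OTUD1 are low with both siRNAs, and USP28, USP13 and USP39 with siATM alone.

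USP12, OTUD4 and OTUD1 fell after both siRNAs, and they are the 3 of 45 removing enzyme genes called after sip53 (6.67%, beside 10.6% of all tested genes, 5.47% higher and 5.11% lower). Over all 10640 tested genes 536 were called after both siRNAs. USP12, which is activated by the WD-repeat protein WDR48, had log2 values of 8.82 and 8.85 with siNC, 8.27 and 7.92 with siATM, and 8.35 and 8.41 with sip53. All 4 knockdown arrays lay below the controls. The log2 fold change was −0.74 (SE 0.11, adjusted p = 0.00336) after siATM and −0.46 (SE 0.11, adjusted p = 0.0411) after sip53. The siATM arrays of USP12 differed by 0.35, the widest gap within a group among the 45 genes. OTUD4, an OTU-family deubiquitinase with a part in alkylation repair, stood at 9.04 and 9.02 with siNC, 8.42 and 8.33 with siATM, and 8.62 and 8.57 with sip53. Here the 3 groups did not overlap, with siATM lowest (log2 fold change −0.66, SE 0.06, adjusted p = 0.000678), then sip53 (−0.44, SE 0.06, adjusted p = 0.00616). OTUD1, a deubiquitinase with a single coding exon, fell from 8.14 and 8.18 to 7.69 and 7.80 with siATM (−0.42, SE 0.06, adjusted p = 0.00381) and to 7.77 and 7.82 with sip53 (−0.37, SE 0.06, adjusted p = 0.0135). The knockdown arrays of OTUD1 overlapped each other. Both comparisons use the same siNC arrays.

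USP28, USP37 and USP13 fell after siATM and not after sip53. USP28 binds the damage-response protein 53BP1 and is known to stabilise MYC. It stood at 9.59 and 9.69 with siNC, 9.18 and 9.25 with siATM, and 9.75 and 9.78 with sip53. The siATM arrays were the lowest and the sip53 arrays the highest (log2 fold change −0.43, SE 0.06, adjusted p = 0.00328 after siATM; 0.12, adjusted p = 0.269 after sip53). USP37, which protects cyclin A at entry into S phase, had values of 8.63 and 8.54, then 8.31 and 8.04 with siATM, and 8.52 and 8.58 with sip53 (−0.41, SE 0.09, adjusted p = 0.0177 after siATM). As with UBE2T and UBE2S, the proliferation markers were lower on the same 2 arrays, and their part was not tested. USP13, a relative of the free-chain enzyme USP5, went from 8.79 and 8.64 to 8.47 and 8.21 with siATM (−0.37, SE 0.10, adjusted p = 0.0288) and stood at 8.87 and 8.93 with sip53. USP5 itself was at −0.18 (SE 0.07) after each siRNA and not called. USP39, a catalytically inactive USP that works in the spliceosome, fell from 9.64 and 9.61 to 9.33 and 9.28 with siATM (−0.32, SE 0.06, adjusted p = 0.00647), and its sip53 arrays, at 9.73 each, lay above the controls (0.10, adjusted p = 0.283).

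USP14, the reversible deubiquitinase of the proteasome's regulatory particle, fell after siATM from 11.59 and 11.57 to 11.32 and 11.30 (log2 fold change −0.27, SE 0.06, adjusted p = 0.0126), and stood at 11.52 and 11.59 with sip53. UCHL5, another deubiquitinase bound to that particle, was at −0.15 (SE 0.10, adjusted p = 0.333), and its siATM arrays were apart at 8.10 and 7.79. USP31 (−0.31, adjusted p = 0.0128) and USP43 (−0.33, adjusted p = 0.0389) also fell after siATM. USP22, the deubiquitinase of the SAGA complex, fell (−0.23, SE 0.06, adjusted p = 0.0248), and USP54 (0.22, adjusted p = 0.0339) and USP42 (0.20, adjusted p = 0.0429) rose. USP42 stood as high after sip53 (0.20, adjusted p = 0.0797), and its direct difference was 0.0054 (adjusted p = 0.96). USP22 and USP43 were not called between the siRNAs either (−0.16 each, adjusted p = 0.0798 and 0.239). USP22 and USP42 were named after their values were seen, and USP42 was not called with the replicate number as a block.

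USP7, USP4, OTUD5 and UCHL3 were not called against siNC. USP7, which stabilises MDM2 and p53, had values of 10.10 and 9.93 with siNC, 10.09 and 9.99 with siATM, and 9.94 and 9.94 with sip53. Those arrays overlapped, with log2 fold changes of 0.02 and −0.07 (SE 0.07 each). USP4 was at 0.16 (SE 0.06, adjusted p = 0.0908) after siATM and 0.10 after sip53, and OTUD5 at −0.09 and −0.10 (SE 0.06 each). UCHL3 was at −0.04 after siATM and 0.17 after sip53 (SE 0.06 each). A p that misses the limit does not show that these genes did not change. The other 8 removing enzyme genes were below the limit and not tested, namely UCHL1, USP2, USP6, USP26, USP29, USP44, USP50 and USP51. UCHL1, the neuronal ubiquitin hydrolase, lay between 5.65 and 5.77 on the 6 arrays. USP2 is the 1 member with more than 1 probe set, and both were below the limit.

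After siATM, USP12, OTUD4, OTUD1, USP28 and USP39 kept their call in each of the 6 fits (adjusted p at most 0.0462). USP14 and USP37 lost it without siNC replicate 1 or 2 (adjusted p up to 0.0713 and 0.0968), and USP13 without these or siATM replicate 2 (up to 0.149). USP31 lost it without siNC replicate 1, siNC replicate 2 or siATM replicate 1 (up to 0.0659). USP22 and USP43 lost it whichever siNC or siATM array was dropped (up to 0.115 and 0.188), USP54 without any 1 of the 6 arrays (up to 0.146), and USP42 without any 1 of them except siATM replicate 2 (up to 0.171). The count of 13 fell without either siNC array, as did the 2708 called over all tested genes. Without siNC replicate 1 the count also held genes outside the 13. After sip53, OTUD4 lost its call without sip53 replicate 2 (adjusted p = 0.0571, the highest of the 6 fits), and USP12 and OTUD1 lost theirs whichever siNC or sip53 array was dropped (up to 0.175 and 0.096). That count of 3 was 1 without siNC replicate 1, siNC replicate 2 or sip53 replicate 1, and 0 without sip53 replicate 2. Over all tested genes the sip53 count of 1126 was 272 to 329 when 1 of the siNC or sip53 arrays was dropped.

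The direct comparison of siATM with sip53 asks whether the 2 siRNAs left these transcripts at different levels. Of the 21 conjugating enzyme genes 4 were lower with siATM than with sip53 and 2 higher, and of the 45 removing enzyme genes 10 were lower and 5 higher (7 lower and 6 higher with arrays centred on their medians). These are 28.6% and 33.3%, beside 30.3% of all tested genes (14.0% higher and 16.3% lower). UBE2T (−0.51, SE 0.06, adjusted p = 0.00119), UBE2V2 (−0.37, adjusted p = 0.00441), UBE2S (−0.31, adjusted p = 0.0135) and UBE2L6 (−0.31, adjusted p = 0.0112) differed between the 2 siRNAs, so their siATM fall was not matched after sip53. UBE2G2, which works in degradation from the endoplasmic reticulum (0.24, adjusted p = 0.0192), and UBE2Z (0.24, adjusted p = 0.0271) were higher with siATM. For UBE2E3 and UBE2Q2 the siRNAs differed by 0.06 (SE 0.05) and 0.11 (SE 0.07), not called.

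**Figure D3:**
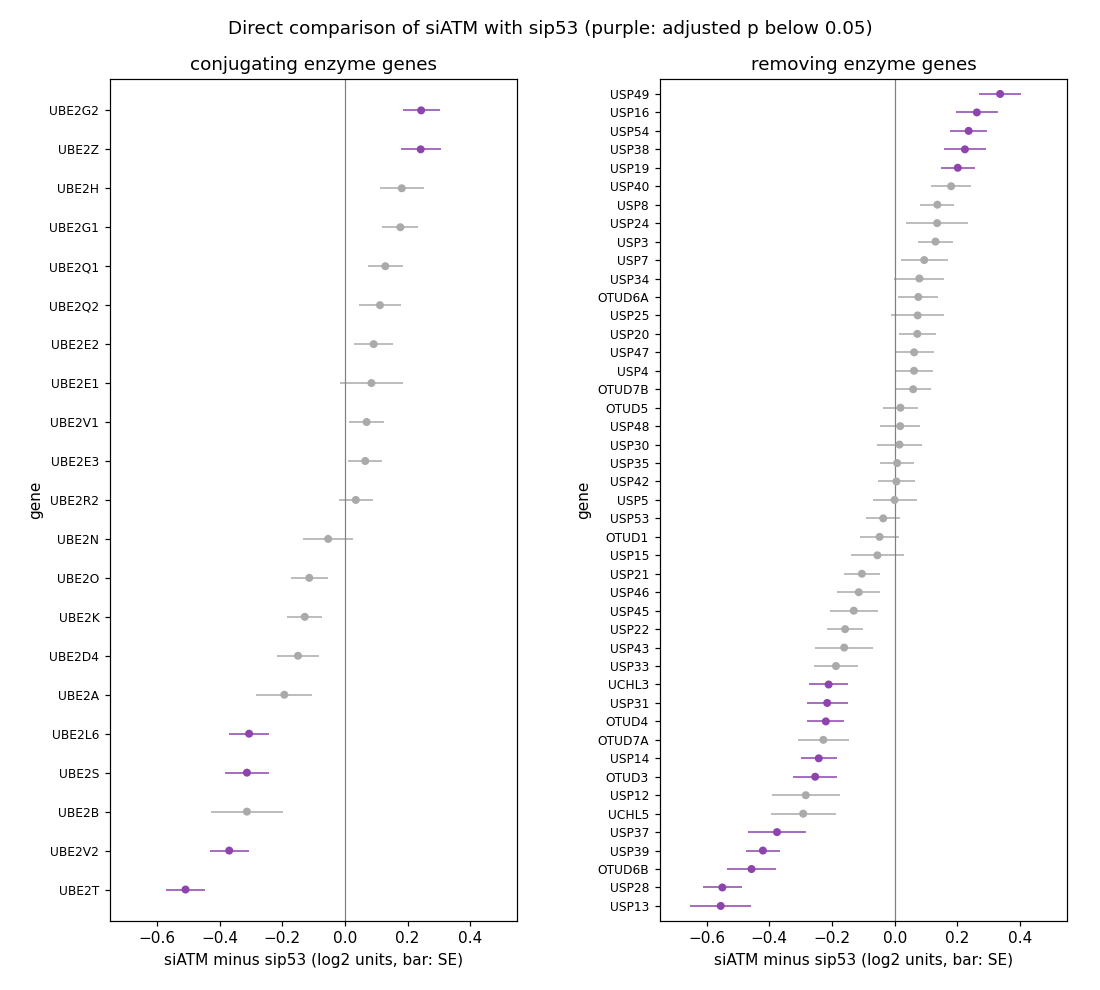
Difference between siATM and sip53 (horizontal axis, log2 units, points with bars of 1 SE) for the 21 tested conjugating and 45 tested removing enzyme genes; purple marks an adjusted p below 0.05. UBE2T, USP13 and USP28 lie farthest to the left at −0.51, −0.56 and −0.55, and USP49 farthest to the right at 0.34.

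USP13 (−0.56, SE 0.10, adjusted p = 0.00505) and USP28 (−0.55, SE 0.06, adjusted p = 0.000943) had the largest differences among removing enzyme genes. OTUD6B stood at 8.77 and 8.98 with siNC, 8.64 and 8.60 with siATM, and 9.11 and 9.05 with sip53. It was called between the siRNAs (−0.46, SE 0.08, adjusted p = 0.0049) and against siNC in neither case (−0.26, adjusted p = 0.0524; 0.20, adjusted p = 0.158). USP39 (−0.42, adjusted p = 0.00164), USP37 (−0.38, adjusted p = 0.0207), OTUD3 (−0.25, adjusted p = 0.0326), USP14 (−0.24, adjusted p = 0.017), OTUD4 (−0.22, adjusted p = 0.0286), USP31 (−0.22, adjusted p = 0.0431) and UCHL3 (−0.21, adjusted p = 0.0398) were also lower with siATM. The histone deubiquitinases USP49 and USP16 were higher with siATM than with sip53. USP49 had values of 7.44 and 7.32 with siATM and 7.001 and 7.08 with sip53, on either side of the siNC arrays at 7.23 and 7.18 (0.34, SE 0.07, adjusted p = 0.00889). USP16 stood at 10.16 and 10.00 against 9.80 and 9.84 (0.26, SE 0.07, adjusted p = 0.0247). USP54 (0.24, adjusted p = 0.0211) was higher with siATM too, as were USP38 (0.22, adjusted p = 0.0388) and USP19 (0.20, adjusted p = 0.0296), which were named after their values were seen. USP12 and OTUD1, which fell after both siRNAs, were not called between them (−0.28, SE 0.11, adjusted p = 0.0889; −0.05, SE 0.06, adjusted p = 0.614).

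In the direct comparison UBE2T, UBE2V2, USP13, USP28, OTUD6B and USP39 kept their call in each of the 6 fits (adjusted p at most 0.0374). The other 15 lost it without at least 1 array. UBE2L6 lost it without sip53 replicate 2 (adjusted p up to 0.0836), USP49 without sip53 replicate 1 (up to 0.0662) and UBE2S without sip53 replicate 1 or 2 (up to 0.0707). UBE2G2, UBE2Z and USP16 lost it without sip53 replicate 1, sip53 replicate 2 or siATM replicate 1 (up to 0.122, 0.13 and 0.128), and USP14, USP37 and USP54 without either sip53 array or siATM replicate 2 (up to 0.117, 0.104 and 0.141). OTUD3, USP19 and USP38 lost it without any array but siATM replicate 2 (up to 0.187, 0.137 and 0.175), OTUD4 and UCHL3 without any array but siATM replicate 1 (up to 0.151 and 0.206), and USP31 without any 1 of the 6 (up to 0.246). OTUD3, UCHL3 and USP31 were also not called after centring arrays on their medians. The count of 6 conjugating genes was 3 when sip53 replicate 1 was dropped and 2 when sip53 replicate 2 was. The count of 15 removing genes was 9 without either siNC array, 4 without sip53 replicate 1 and 5 without sip53 replicate 2. Over all tested genes 3219 became 2852 without either siNC array, 1842 without sip53 replicate 1 and 1884 without sip53 replicate 2.

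Of the 66 tested members 37 (56.1%) were called in none of the 3 comparisons, beside 60.2% of all tested genes. The siATM arrays were the least alike among members as among all genes. The median size of the difference between the 2 arrays of a group was 0.06 with siATM, 0.05 with siNC and 0.05 with sip53 for conjugating enzyme genes, 0.08, 0.04 and 0.05 for removing enzyme genes, and 0.09, 0.07 and 0.06 for all tested genes. Replicate 1 of siATM was above replicate 2 in 18 of 21 conjugating and 29 of 45 removing enzyme genes, beside 5580 of 10640 genes.

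Other genes of the pathway were taken from lists chosen with earlier results of these data known. Over all tested genes 25.5% were called after siATM and 10.6% after sip53. Among ubiquitin and activating enzyme genes 7 of 12 are named and tested, and 2 fell after siATM (28.6% of the 7). The polyubiquitin gene UBB had a log2 fold change of −0.41 (SE 0.07, adjusted p = 0.00721) and SAE1, a subunit of the SUMO-activating enzyme, of −0.28 (SE 0.08, adjusted p = 0.0442). The main ubiquitin-activating enzyme UBA1 was at 0.11 (SE 0.06, adjusted p = 0.215), and after sip53 0 of the 7 were called by limma (UBB 0.11, adjusted p = 0.409). Of 9 conjugating enzymes or their inactive relatives outside the symbol rule, UEVLD rose after siATM (0.38, SE 0.06, adjusted p = 0.00572) and TSG101, a subunit of the endosomal sorting machinery, fell after sip53 (−0.24, SE 0.06, adjusted p = 0.0497). Outside the rule, 16 enzymes that remove ubiquitin or a ubiquitin-like protein such as SUMO were tested. Of these 16, 3 fell and 2 rose after siATM (31.2% called). The falls were in ATXN3, the ataxin-3 deubiquitinase (−0.53, SE 0.07, adjusted p = 0.00214), CYLD, a brake on NF-kB signalling (−0.41, SE 0.09), and STAMBPL1 (−0.24, SE 0.05). After sip53 YOD1, a deubiquitinase of degradation from the endoplasmic reticulum, rose (0.74, SE 0.05, adjusted p = 0.00124), and of the SUMO protease genes SENP7 (0.51, SE 0.07) rose and SENP1 (−0.50, SE 0.07) fell. YOD1 rose less after siATM (0.25, SE 0.05), and the direct comparison gave −0.49 (SE 0.05, adjusted p = 0.000875).

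Of 14 tested genes of the cullin-RING ligase core, 1 rose and 1 fell after siATM (14.3% called, beside 25.5% of all tested genes). The rise was in CUL7 (0.38, SE 0.07, adjusted p = 0.00737) and the fall in BTRC, the F-box protein that recognises phosphorylated substrates (−0.29, SE 0.06, adjusted p = 0.00959). BTRC rose after sip53 (0.30, SE 0.06, adjusted p = 0.0188) and so differed between the siRNAs by −0.59 (SE 0.06, adjusted p = 0.000564). Of the 14, 6 were higher and 2 lower with siATM than with sip53. These are 57.1%, beside 30.3% of all tested genes (14.0% higher and 16.3% lower). Of 41 listed proteasome genes 1 is named in the annotation, the ubiquitin receptor gene ADRM1, which was not called (−0.08, SE 0.06, after siATM), so nothing is said here of the proteasome.

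**Figure D4:**
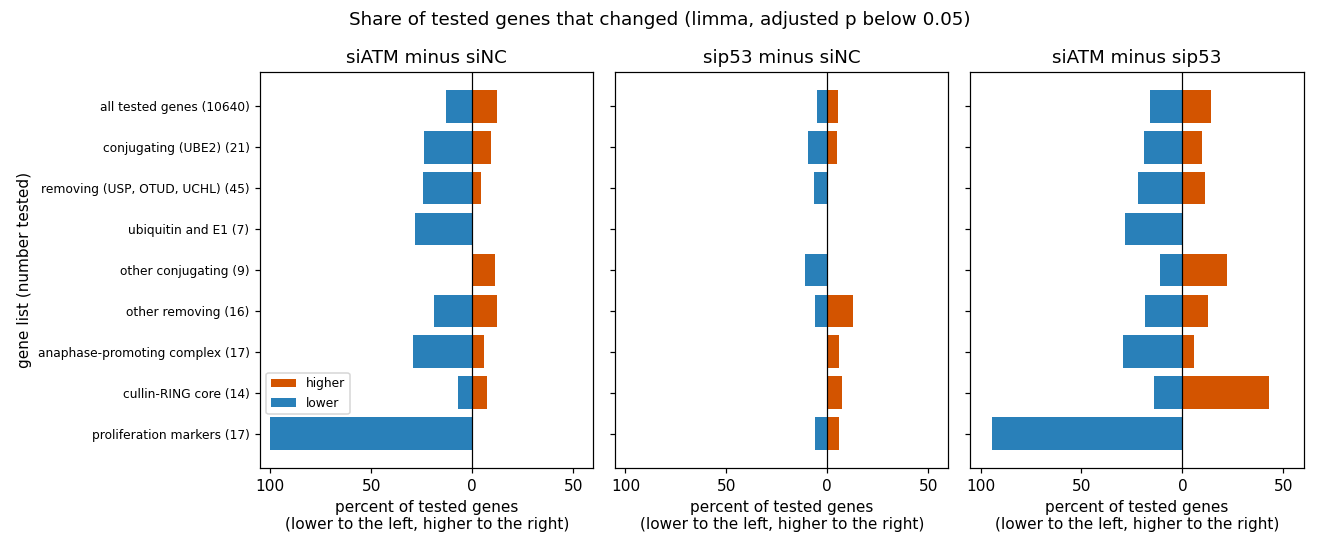
Percent of tested genes that changed in each list (horizontal axis; lower to the left, higher to the right; limma, adjusted p below 0.05) in the 3 comparisons, with the number tested after each name and all tested genes in the first line. The shares of conjugating and removing enzyme genes after siATM (33.3% and 28.9%) stand beside 25.5% of all tested genes. Of the proliferation markers 17 of 17 were lower, in a list chosen with earlier results of these arrays known. The other removing enzymes include some that remove ubiquitin-like proteins.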

How the data were processed

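The authors deposited 1 log2 value per probe set for each of the 6 arrays (Affymetrix Human Gene 2.0 ST, biotin-labelled cDNA). A range of 1.33 to 14.2 shows the scale. Background correction, summarisation, normalization and annotation build are not given in the sources used here. Ranked values differed between arrays by 0.0325 on average, so the arrays share nearly 1 distribution and a change in total RNA would not show. Detection calls and scan batches were not analysed, and precision is limited by the number of arrays. Of 53617 probe sets 16098 had 1 gene symbol, 0 had several, and 37519 are unnamed here.

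For each gene the probe set with the highest mean was used. Group means were fitted to all 6 arrays with limma 3.58.1 (R 4.3.3), with 3 residual and 7.29 total degrees of freedom after eBayes, on genes with a mean at or above 5.96. P-values are two-sided, and log2 fold changes carry the moderated SE. The procedure was tested on simulated data. Named members are 15 tested genes of textbook interest and, per comparison and class, up to 10 called members of largest change. Members and lists were chosen with earlier results of these data known. Alternatives were the filter, scaling, probe-set choice, moderation, arrays in the fit, the replicate number as a block, and leaving out each array. A lone array left in a group was assumed to vary like the other groups. Promoters were read from a RefSeq table (GRCh38.p14).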

Additional observations from a re-analysis of the deposited data

Results flagged for a closer look

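The 2 siRNAs' effects on the same transcripts differed, by the direct comparison of siATM with sip53 (limma, adjusted p below 0.05 over all tested genes), in 19 named members. Over all 66 tested members 21 were called in it (31.8%), beside 30.3% of all tested genes. Members were named partly because they were called in this comparison, so the 19 is largely set by that choice. Most of these calls were lost in at least 1 fit that left out 1 array, as given above. Values are log2 differences, siATM minus sip53. Among conjugating enzyme genes they were −0.51 for UBE2T, −0.37 for UBE2V2, −0.31 for UBE2S, −0.31 for UBE2L6, 0.24 for UBE2Z and 0.24 for UBE2G2. Among removing enzyme genes they were −0.56 for USP13, −0.55 for USP28, −0.46 for OTUD6B, −0.42 for USP39, −0.38 for USP37, −0.25 for OTUD3, −0.24 for USP14, −0.22 for OTUD4, −0.22 for USP31, −0.21 for UCHL3, 0.24 for USP54, 0.26 for USP16 and 0.34 for USP49. With 2 arrays in each group no single array could be set against its group as an outlier.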

How the results depend on the processing

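For removing enzyme genes the count after siATM was 20 with the filter at the 70th percentile and 7 with no filter. After sip53 it was 8 with that stricter filter, 8 with a variance trend and robust moderation, and 5 with the replicate block. In the direct comparison it was 6 with no filter and 9 with only the 4 arrays compared. For conjugating enzyme genes the count after sip53 was 0 with no filter (3 in the fit reported), and in the direct comparison it was 11 with a trend and robust moderation. The counts over all genes moved as well. After siATM, after sip53 and in the direct comparison they were 2708, 1126 and 3219 as reported, 1848, 481 and 2369 with no filter, 2940, 1571 and 3306 with the stricter filter, and 3254, 1742 and 3717 with a trend and robust moderation. After sip53 the replicate block gave 1001, and in the direct comparison the 4 arrays compared gave 2852. Leaving out 1 array gave 4 to 7 conjugating and 5 to 11 removing genes after siATM, 0 to 3 and 0 to 3 after sip53, and 2 to 6 and 4 to 13 in the direct comparison. Fewer arrays leave fewer degrees of freedom, and for the other settings the cause was not tested.

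Of the 47 calls of members over the 3 comparisons, 0 changed direction under the alternatives run, but most of these could not turn one. The filter, the moderation, the 4 arrays compared and the replicate block leave a member's group difference as it was. In each call the arrays of the groups compared did not overlap, so leaving out 1 array could not turn its sign. With no filter 22 of the 47 calls were lost, with only the 4 arrays compared 8, with arrays centred on their median 3, and with the replicate block 2 (UBE2Z after sip53 and USP42 after siATM). No call was lost after quantile normalization or when a gene's probe sets were averaged, but neither step could move member values much. The arrays already shared nearly 1 distribution, and the 1 member with more than 1 probe set, USP2, was not tested. The labels give each group replicates 1 and 2, with no word on what a number shares. The deviations of same-numbered arrays correlated at 0.04, 0.03 and 0.12, so the numbers were not taken as pairs.

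Leaving out 1 array turned the sign of 38 of the 198 values of tested members. None of the 38 was called, and a called value could not turn, as its groups did not overlap. Of the 38, 17 belong to named genes. After siATM these ranged from −0.21 to 0.0669 for UBE2A, −0.17 to 0.0005 for UBE2N, −0.0868 to 0.0466 for UBE2Z, −0.0937 to 0.0052 for UCHL3, −0.30 to 0.0028 for UCHL5 and −0.0643 to 0.11 for USP7. After sip53 they ranged from −0.10 to 0.0429 for UBE2N, −0.0457 to 0.0032 for UBE2S, −0.0274 to 0.0273 for UBE2T, −0.0812 to 0.0358 for UBE2V2, −0.0678 to 0.0031 for USP14, −0.0819 to 0.0120 for USP37, −0.0626 to 0.0221 for USP54 and −0.16 to 0.0144 for USP7. In the direct comparison they ranged from −0.10 to 0.0079 for OTUD1, −0.0146 to 0.0514 for OTUD5 and −0.14 to 0.0307 for UBE2N.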
